A study of Canis lupus familiaris with 33 samples.

Results

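Methylated regions of the liver were compared directly with those of the pancreas in beagles, on the 38 autosomes. The members of the comparison were the peaks of the liver list and of the pancreas list, merged into 1 region wherever peaks of the lists shared at least 1 base. This gave 314258 regions, while merging the autosomal peaks of all 11 tissues of the study gave 450791. Each region was classed as liver only, pancreas only or shared. The study measured DNA methylation by MBD-seq: fragments of genomic DNA are pulled down with a methyl-CpG-binding domain bound to beads, and what was pulled down is sequenced. It held 33 libraries, 22 of captured DNA and 11 of input DNA. The dogs were in healthy condition before death, and no treatment is named that differs between the tissues. For both tissues, 1 captured library was titled 679 and labelled female and 1 was titled jj8 and labelled male. The input of liver was titled jj8 and that of pancreas 679, and both inputs were labelled female, although jj8 was labelled male in the captured libraries. The tissue difference and the difference in input animal therefore cannot be told apart. DNA was taken from minced whole tissue, so the lists mix the cell types of each organ. Weaker methylation in all cells and its absence from a share of the cells cannot be told apart.

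In mammals, methyl groups are placed mostly on cytosines that are followed by guanine, and most of the genome carries them. Stretches dense in such CpG pairs often stay free of methylation at active promoters, and regulatory elements used by a tissue commonly lose it there. Because the binding domain prefers several methylated CpGs in 1 fragment, captured fragments come mainly from sequence that is both methylated and rich in CpG. The liver and the pancreas both arise from the foregut endoderm. The liver consists mostly of hepatocytes, and most of the pancreas consists of acinar cells that make digestive enzymes, with islets that secrete hormones.

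Each tissue had 1 deposited peak list that its labels assign to both captured libraries, so no spread between animals can be computed and no test between the tissues was possible. Intervals given below are 95% Wilson intervals and cover counting error only. The number of reads behind the lists is unknown. The liver list held 294358 autosomal peaks with a median width of 309 bases and covered 168.159 Mb. The pancreas list held 257860 peaks with a median width of 297 bases and covered 139.781 Mb. The median fold enrichment, the authors' own value for each peak, was 7.18 in liver and 7.9994 in pancreas, and the median −log10 p was 23.6 and 30.8. The liver list was thus the longer one and had the lower median fold. To put both lists on 1 scale, each fold was divided by the median of its list and is called normalised fold below. Genes at the coordinates were not analysed here, and no sequence was read, because a genome and an annotation of the build CanFam3.1, which the submitters' processing notes name, were not used here.

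Most methylated regions were common to liver and pancreas. Of the 314258 regions, 220243 or 70.1% (69.9% to 70.2%) were shared, 71473 or 22.7% (22.6% to 22.9%) were liver only and 22542 or 7.17% (7.08% to 7.26%) were pancreas only. Liver only regions were thus 3.17 times as many as pancreas only regions. By length, shared regions held 152.682 Mb, or 86.2% of the merged length, against 19.4 Mb in liver only and 5.12 Mb in pancreas only regions. The bases covered by both lists came to 130.767 Mb, which is 77.8% of the liver list and 93.6% of the pancreas list. The excess of liver only regions moved with the length of the lists. When the liver list was reduced to its 257860 peaks with the highest fold, the share of liver only regions was 16.7% and that of pancreas only regions 12.3%, and the shared class stood at 71.0%.

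Regions found in 1 of the tissues were short and weak. The median width was 236 bases in liver only regions (quartiles 211 and 284) and 214 bases in pancreas only regions (198 and 236), against 391 bases (270 and 739) in shared regions. A width of at least 1000 bases was reached by 16.5% of shared regions, by 134 liver only regions and by 17 pancreas only regions. The median normalised fold of the highest peak was 0.676 in liver only regions (quartiles 0.567 and 0.830) and 0.644 in pancreas only regions (0.546 and 0.787). In shared regions it was 1.19 for liver (0.845 and 1.82) and 1.07 for pancreas (0.741 and 1.70), each from its own list. The higher of both had a median of 1.32, a value that taking the higher of 2 lists raises by construction. Liver only regions with a fold at or above the median of their list numbered 7922, or 11.1%, and pancreas only regions 1717, or 7.62%. The median −log10 p was 11.8 in liver only and 13.7 in pancreas only regions, while in shared regions it was 31.7 for liver and 34.3 for pancreas. The bulk of both classes thus lay below the median of its own list.

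**Figure D1:**
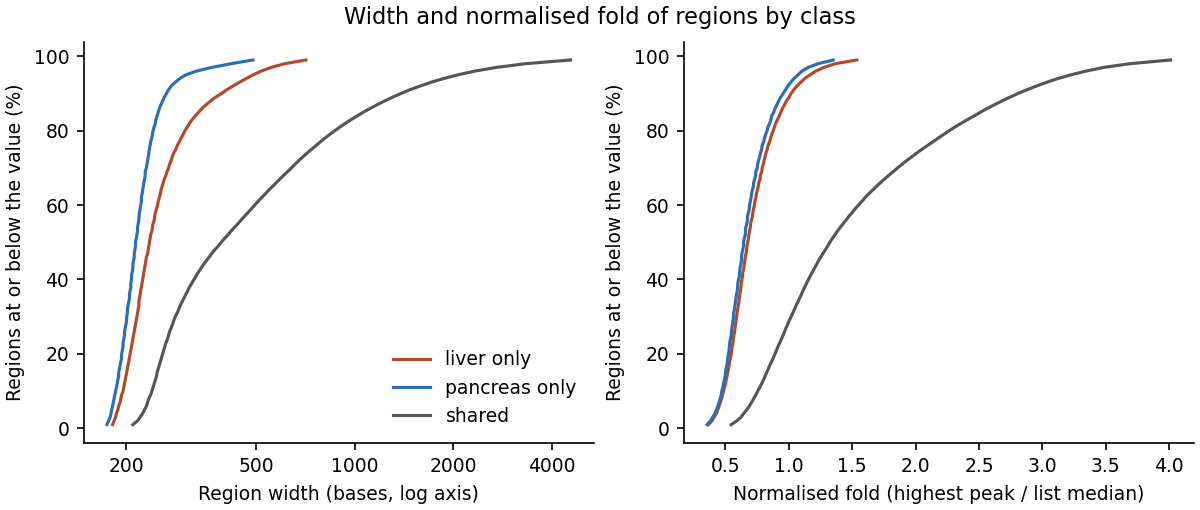
Cumulative percent of regions (vertical axis) by region width in bases on a log axis (left) and by normalised fold, the highest peak divided by the median of its list (right), for liver only, pancreas only and shared regions, drawn at each whole percentile. The curves of both single-tissue classes lie close together at short widths and low folds, with median widths of 236 and 214 bases, and the shared curve lies to the right with a median of 391 bases.

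Weak peaks had a counterpart less often than strong ones in both lists, and the size of the gap between the tissues moved with the length of the lists. Of all liver peaks, 75.7% (75.6% to 75.9%) lay in a shared region, and of all pancreas peaks 91.3% (91.1% to 91.4%). In the decile of liver peaks with the lowest fold, the share was 36.3% (35.7% to 36.8%), and it rose through every decile to 99.9% in the strongest one. In pancreas the weakest decile stood at 78.2% (77.7% to 78.7%) and the next at 77.6% (77.1% to 78.1%), which overlap, and the strongest at 99.996%. With the liver list reduced to the length of the pancreas list, the weakest decile stood at 47.9% (47.3% to 48.5%) in liver and 65.1% (64.6% to 65.7%) in pancreas, and the strongest at 99.9% and 99.97%. In the strongest decile of either list, nearly every peak thus had a counterpart in the other tissue. In the strongest decile the median peak width was 1211 bases in liver and 1232 bases in pancreas, against 218 and 215 bases in the weakest.

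**Figure D2:**
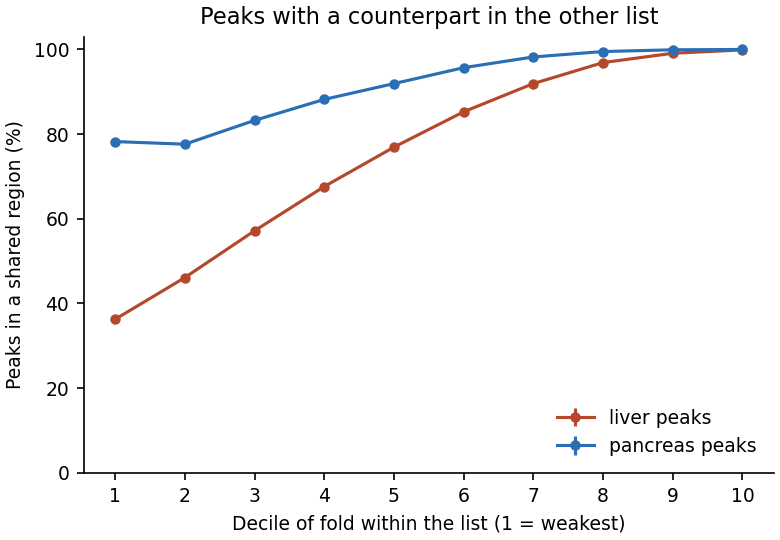
Percent of autosomal peaks that lie in a shared region (vertical axis) by decile of fold within the list (horizontal axis, 1 is the weakest), for liver and pancreas peaks, with 95% Wilson intervals. The liver curve starts at 36.3% and the pancreas curve at 78.2%, and both end above 99%.

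The strongest liver only regions were mostly methylated in other tissues. The one with the highest fold lay at chr25:42832564-42833990, was 1427 bases wide and had a fold of 21.9 in liver, a normalised fold of 3.06. It had a peak in 8 of the other 9 tissues, where the normalised fold ran from 0.752 in kidney to 2.22 in colon. The region at chr6:15319580-15320023 had a normalised fold of 2.97 in liver and a peak in all 9 other tissues, from 0.868 in kidney to 1.80 in cerebrum. The region at chr11:55301278-55301767 had 2.95 in liver and, in the 9 other tissues, 0.513 in cerebellum to 1.95 in kidney. At chr37:30362337-30363265 liver had 2.86 and 8 other tissues had a peak, with 2.19 in lung and 2.18 in spleen as the highest. At chr20:57405959-57406831 liver had 2.77 and 7 other tissues had a peak, the highest being 1.94 in lung. In these 5 regions pancreas was without a peak where 7 to 9 of the other 9 tissues had one. Since they were chosen for their fold in liver, its rank among the tissues is no result. The widest liver only region, chr18:46302176-46305672, spanned 3497 bases with a lower normalised fold of 1.16. Apart from liver it had a peak in cerebrum (0.612) and stomach (0.690) only.

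Among pancreas only regions, 1 of the 5 strongest had no peak in any other tissue. It lay at chr16:20019263-20020690, was 1428 bases wide and had a fold of 20.1 in pancreas, a normalised fold of 2.52. The next, chr9:3525491-3527956, was also the widest of the class with 2466 bases, had a normalised fold of 2.23 in pancreas and a peak in 8 other tissues, up to 2.25 in kidney. The region at chr22:76723-77323 had 2.11 in pancreas and a peak in 4 other tissues, all between 0.680 and 0.762. At chr8:27742689-27742978 pancreas also had 2.11 and all 9 other tissues had a peak, from 1.27 in colon to 2.09 in stomach. At chr26:15315944-15316791 pancreas had 2.05 and the 9 other tissues ran from 0.686 in kidney to 2.60 in lung. Pancreas was thus not the highest tissue at chr26, where lung was above it, or at chr9, where kidney was marginally above it.

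Over whole classes, regions of 1 of the tissues were commonly methylated elsewhere, and more so those of the pancreas. A liver only region had a peak in a median of 4 of the other 9 tissues, a pancreas only region in 6 and a shared region in 9. No other tissue had a peak in 4500 liver only regions, or 6.30% (6.12% to 6.48%), and in 418 pancreas only regions, or 1.85% (1.69% to 2.04%). All 9 had a peak in 4.76% (4.61% to 4.92%) of liver only, 9.55% (9.17% to 9.94%) of pancreas only and 61.4% (61.2% to 61.6%) of shared regions. Pancreas only regions had a peak more often than liver only regions in 8 of the 9 tissues. The gap was widest in stomach, with 60.6% against 34.8%, and mammary gland, with 58.7% against 38.3%. Lung was the exception, with a peak in 47.0% of pancreas only and 51.6% of liver only regions. Ovary had the highest share in both classes, 76.5% and 65.5%, and also the longest of the 9 lists. With the liver list reduced to the length of the pancreas list, the median share over the 9 tissues was 64.8% for pancreas only and 54.4% for liver only regions, against 60.6% and 51.6% with the full list.

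The strongest single-tissue regions had a peak in more of the other tissues than the weakest. Liver only regions with a normalised fold under 0.75 numbered 45637 and had a peak in a mean of 3.86 of the other 9 tissues, while the 845 with at least 1.5 had one in 6.38. In pancreas only regions the mean was 4.98 in the 15748 below 0.75 and 7.31 in the 104 at or above 1.5, close to the 7.34 in the 1613 between 1 and 1.5. No peak in any other tissue was found for 19 liver only regions at or above 1.5, or 2.25%, against 8.01% below 0.75. For pancreas only regions these shares did not fall in the same way, with 3 regions or 2.88% at or above 1.5, 0.558% between 1 and 1.5 and 2.31% below 0.75.

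Shared regions had nearly the same shape in both tissues. Of the 220243 shared regions, 205254 or 93.2% had exactly 1 peak in each list. In these the summits, the point of highest enrichment within each peak, lay a median of 19 bases apart, and 80.4% lay within 50 bases. In the 24424 of them that were at least 1000 bases wide the median distance was 118 bases. Liver covered more of the shared region in 71.7% of cases and pancreas in 27.5%, with medians of 374 and 316 covered bases, but the median ratio of covered width was only 1.07 (quartiles 0.991 and 1.20). Where the lists differed in number of peaks, the pancreas list was usually the more divided one. In 12454 regions 1 liver peak spanned 2 or more pancreas peaks, and in 2111 regions the reverse was seen. The widest shared region, chr25:49371482-49411088, measured 39607 bases and held 4 liver and 3 pancreas peaks, with normalised folds of 3.50 and 4.00.

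Fold differences in shared regions were modest. The log2 ratio of the normalised fold of liver to that of pancreas, each taken from the highest peak of the region, had a median of 0.10 and quartiles of −0.28 and 0.50. The middle 90% lay between −0.84 and 1.13, and 68.2% of regions differed by less than 1.5 times. Across shared regions the log2 normalised folds of both tissues had a Pearson r of 0.697, given as a description, since regions of 1 list share its libraries. A difference of 2 times or more was counted as a call. Liver was higher in 16079 shared regions, 7.3% of those compared, and pancreas in 6084, or 2.76%, together 10.1%.

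Which tissue was higher more often depended on the scaling of the lists. The medians of the lists differ by 0.16 on the log2 scale, and a change of divisor shifts all ratios together. Liver made up 72.5% of the calls with the list medians as divisors. With the fold as deposited the median log2 ratio was −0.05 and liver made up 48.8% of the calls, 10267 regions against 10779 for pancreas. With the medians over the shared regions as divisors the median was also −0.05 and liver made up 49.8% of the calls. The direction over shared regions as a whole thus depended on the divisor. Ratios of groups of shared regions are to be read against the overall median of 0.10.

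The ratio fell in the regions with the highest mean fold. In the 8 deciles of mean normalised fold from the weakest up, the median log2 ratio lay between 0.10 and 0.20. It was 0.02 in the next and −0.13 in the strongest decile, where regions had a median width of 1550 bases. Liver was higher by 2 times or more in 9.79% of the regions of the fourth decile but in 0.263% of those in the strongest, while pancreas rose from 1.33% in the weakest to 3.86% in the strongest. With the deciles kept as they are, another divisor adds the same value to each of these medians, while the shares past 2 times move with it. No divisor removes a difference in spread, and normalised fold was more widely spread in pancreas. Its median was 0.482 in the weakest and 2.97 in the strongest decile of pancreas peaks, against 0.511 and 2.70 for liver peaks. How far this spread accounts for the fall was not tested. By width, the quintile with a median width of 391 bases had the highest median log2 ratio, 0.24, and the widest quintile, with a median of 1387 bases, the lowest, −0.01. Calls of either direction were rarest in the narrowest quintile, where 1.57% were liver higher and 1.18% pancreas higher. That quintile was also the weakest, with a median of 0.761 for the mean normalised fold. Regions in which only 1 of the tissues had a called peak are not among the shared ones, and the effect of this was not tested.

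**Figure D3:**
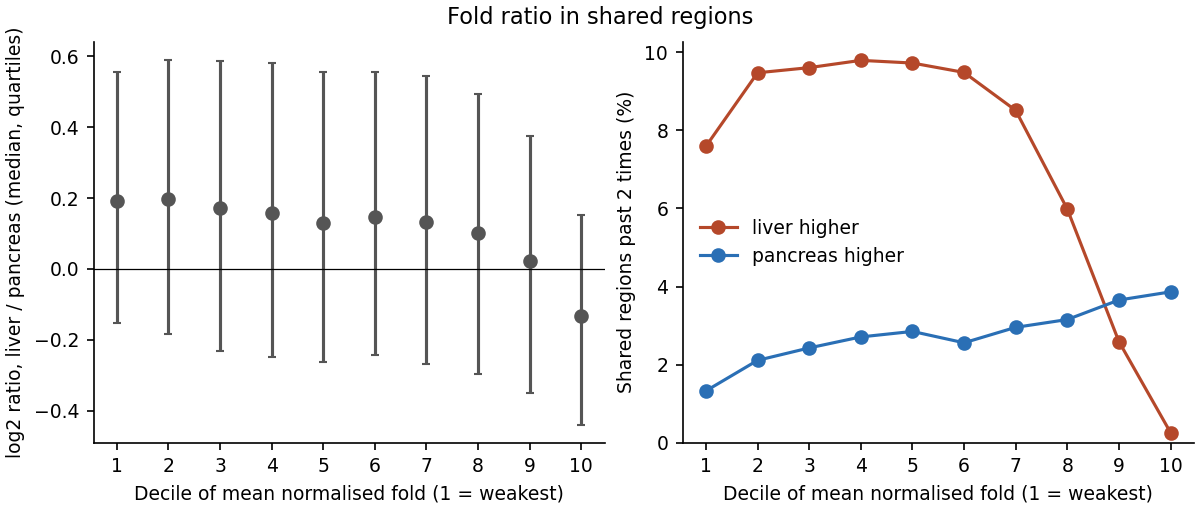
Left, log2 ratio of normalised fold, liver over pancreas, in shared regions (median as point, quartiles as bars) by decile of mean normalised fold. Right, percent of shared regions in which either tissue was higher by 2 times or more. The median ratio runs near 0.20 in the weakest deciles and is −0.13 in the strongest, where liver higher regions make up 0.263% and pancreas higher regions 3.86%.

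The largest liver excess among shared regions with a mean normalised fold of at least 1 was at chr13:10122676-10123367. There the fold was 16.6 in liver and 1.84 in pancreas, a normalised fold of 2.31 against 0.230 and a log2 ratio of 3.33. Kidney (2.25) was close to liver, and cerebellum had no peak. At chr20:39050497-39051375 liver had 2.59 and pancreas 0.295, a log2 ratio of 3.14, and lung stood above both with 3.50. At chr26:1481201-1482225 the values were 2.38 and 0.291, a log2 ratio of 3.03, and mammary gland and ovary had no peak. The pancreas peak in that region covered 227 of its 1025 bases. At chr1:121070001-121071255 the values were 2.03 and 0.260, a log2 ratio of 2.96, with 2.37 in kidney. At chr2:58842146-58842762 they were 2.42 and 0.311, also a log2 ratio of 2.96, and the 9 other tissues ran from 0.677 in stomach to 1.67 in cerebellum. In these 5 regions the pancreas peaks had a −log10 p between 2.46 and 5.36, against a list median of 30.8. They were chosen for a low pancreas value, so its rank among the tissues is no result.

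The largest pancreas excess was at chr19:53038649-53039251. There the fold was 4.25 in liver and 34.8 in pancreas, a normalised fold of 0.592 against 4.35 and a log2 ratio of −2.87. Kidney (3.25), lung (3.19), colon (2.94) and stomach (2.79) were nearest to pancreas, and cerebellum (0.420) was below liver. At chr19:3198694-3199476 liver had 0.581 and pancreas 3.87, a log2 ratio of −2.74, and the 9 other tissues ran from 1.78 in ovary to 5.32 in mammary gland, all above liver. At chr26:10488349-10489579 the values were 0.437 and 2.82, a log2 ratio of −2.69, and the other tissues lay between 0.902 and 1.66. At chr36:2549330-2550438 they were 0.552 and 3.41, a log2 ratio of −2.63, with 4.54 in mammary gland and 0.426 in ovary. At chr3:1204883-1205507 they were 0.544 and 3.31, a log2 ratio of −2.60, and the other tissues ran from 1.15 in ovary to 3.38 in mammary gland. These 5 regions were chosen for a low liver value, yet 1 other tissue was lower still in the first (cerebellum) and in the fourth (ovary).

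In both sets of calls the medians of the other 9 tissues lay between those of liver and pancreas. In pancreas higher regions they were close to that of pancreas when the list medians were the divisors, as in the calls themselves. In the 6084 pancreas higher regions the median normalised fold was 1.95 in pancreas and 0.824 in liver, and it lay between 1.60 (cerebrum) and 1.82 (lung) in the 9 other tissues. In the 16079 liver higher regions it was 1.55 in liver and 0.611 in pancreas, and between 0.930 (stomach) and 1.19 (ovary) in the others. Each of these medians covers only the regions in which that tissue had a peak. That was 71.1% (cerebellum) to 94.4% (lung) of liver higher regions and 91.0% (cerebellum) to 98.4% (stomach) of pancreas higher regions. Over all shared regions these 9 medians ran from 1.17 in colon to 1.38 in cerebellum, with 1.19 in liver and 1.07 in pancreas. Relative to its own median over all shared regions, pancreas stood at 0.570 times in liver higher regions and the other 9 tissues at 0.789 to 0.958 times, against 1.30 times in liver. In pancreas higher regions liver stood at 0.693 times, the other 9 tissues at 1.21 to 1.48 times and pancreas at 1.82 times. On that scale the other 9 tissues were less close to pancreas, whose median over all shared regions was the lowest of all tissues. Since regions were called on liver and pancreas, the liver and pancreas values in these sets only describe the choice. The other 9 lists did not enter the call but share animals with it. Each holds a captured library titled 679, and the second library is titled 244 in mammary gland and ovary, jj82 in colon and stomach and jj8 in the others.

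The rank of liver and pancreas among all 11 tissues was also counted region by region. The call itself favours a low rank for the lower tissue and a high rank for the higher one, so these counts are a description, and the shares over all shared regions given beside them are no value expected without a difference. Of the 4701 pancreas higher regions with a peak in all 11 tissues, liver was the lowest in 68.1%, while pancreas was the highest in 14.3%. Of the 7851 such liver higher regions, pancreas was the lowest in 52.9% and liver the highest in 40.1%. Over all 135200 shared regions with a peak in every tissue, liver was the lowest in 10.2% and the highest in 8.30%, and pancreas in 10.3% and 3.34%. At least 5 of the 9 other tissues were nearer to liver than to pancreas, on the log2 scale, in 65.7% of liver higher regions, in 13.1% of pancreas higher regions and in 46.3% of all. With each list divided by its median over shared regions, liver was the lowest in 50.95% of pancreas higher regions and pancreas in 41.0% of liver higher regions. With calls on the fold as deposited these were 60.2% and 59.7%, so the gap between them depended on the scaling.

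**Figure D4:**
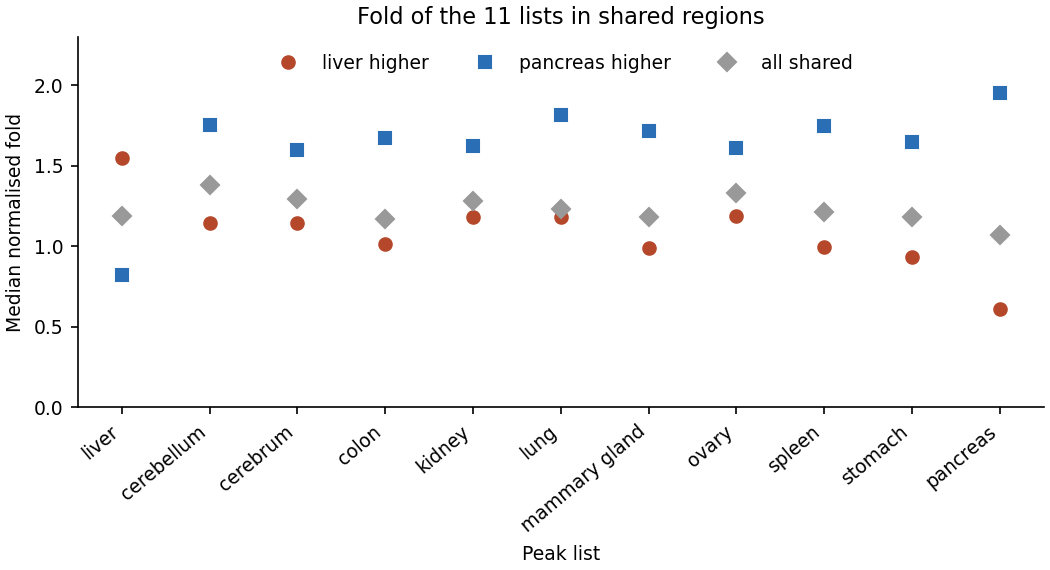
Median normalised fold (vertical axis) in each of the 11 peak lists (horizontal axis) for shared regions in which liver was higher by 2 times or more, pancreas was higher by 2 times or more, and all shared regions. In pancreas higher regions the 9 other tissues run from 1.60 to 1.82, between the 0.824 of liver and the 1.95 of pancreas. In liver higher regions they run from 0.930 to 1.19, between the 0.611 of pancreas and the 1.55 of liver.

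With the full lists, liver only regions outnumbered pancreas only regions on all 38 autosomes, from 1.88 times on chromosome 29 to 4.40 times on chromosome 9. With equal list lengths they did so on 37, up to 1.86 times on chromosome 9, while on chromosome 29 the ratio was 0.825. Summed over the autosomes, the excess at equal lengths is the surplus of pancreas over liver peaks inside shared regions. The share of liver only regions ran from 18.1% (16.9% to 19.2%) on chromosome 31 to 25.6% (24.9% to 26.3%) on chromosome 9, with a median of 22.9% over chromosomes. Its interval lay above the share over all autosomes on 12 chromosomes and below it on 12. With equal list lengths the liver only share of chromosome 32 stood above that of chromosome 9. The share of pancreas only regions ran from 5.78% (5.34% to 6.25%) on chromosome 20 to 11.7% (10.5% to 12.9%) on chromosome 32. On these chromosomes the pancreas only share was 9.23% and 26.3% with the stronger 50% of both lists. With equal list lengths it was 10.04% and 17.3%, and chromosome 29 then stood above chromosome 32 in pancreas only share. The share fell with the density of regions, which was lowest on chromosome 32 with 68.3 per Mb and highest on chromosome 9 with 228.2 per Mb. Across the 38 chromosomes the Pearson r of region density was −0.824 with the share of pancreas only and 0.159 with that of liver only regions. The median log2 ratio of shared regions ran from −0.02 on chromosome 29 to 0.22 on chromosome 9, with r = 0.738 against density. Over windows of 1 Mb the relation to the number of regions was weaker for pancreas only (r = −0.558, 1834 windows) and for the median ratio (r = 0.232, 1383 windows), and for liver only it had the opposite sign (r = −0.256, 1834 windows). These correlations are descriptions, since all chromosomes and windows come from the same libraries and base composition was not analysed here.

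**Figure D5:**
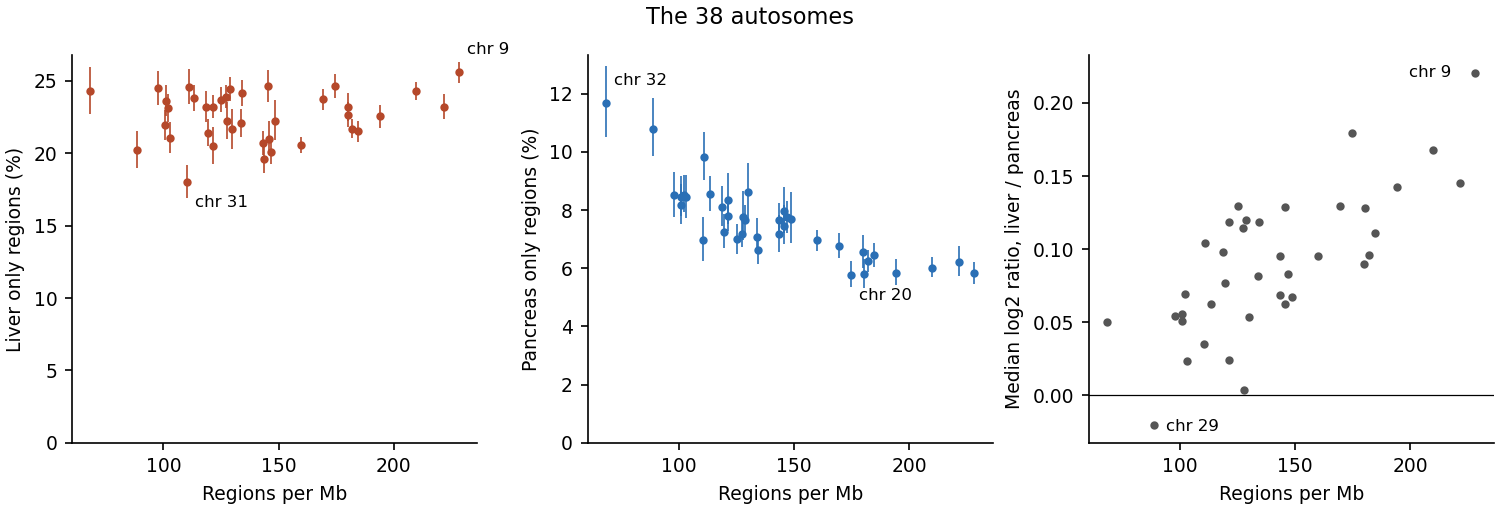
Percent of liver only regions (left) and of pancreas only regions (middle), with 95% Wilson intervals, and median log2 ratio of shared regions (right), against the number of regions per Mb, 1 point for each of the 38 autosomes. The pancreas only share falls from 11.7% on chromosome 32 to 5.78% on chromosome 20, and the median ratio reaches 0.22 on chromosome 9.

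Sharing was highest near the ends of the chromosomes. In the last 1 Mb before the final peak of each autosome, 81.8% of 11561 regions were shared, 12.7% (12.1% to 13.3%) were liver only and 5.47% (5.07% to 5.90%) pancreas only. Between 10 and 20 Mb from that end 66.0% were shared, 26.0% (25.6% to 26.4%) liver only and 8.04% (7.79% to 8.30%) pancreas only. Beyond 20 Mb, where 190183 of the regions lay, the shares turned back to 69.0%, 23.6% (23.4% to 23.8%) and 7.36% (7.25% to 7.48%). The median log2 ratio was −0.04 in the last 1 Mb, 0.14 between 10 and 20 Mb and 0.12 beyond. Regions were also wider near the end, with a median of 490 bases in the last 1 Mb against 279 bases between 10 and 20 Mb. Among shared regions of the fourth to the seventh decile of mean fold, the median log2 ratio was 0.05 in the last 1 Mb and 0.15 between 10 and 20 Mb. At the low-coordinate end the liver only share was 17.0% (16.1% to 17.8%) in the first 1 Mb and the median log2 ratio 0.01, against 25.2% and 0.12 between 10 and 20 Mb and 22.6% and 0.10 beyond 20 Mb from that end. In the same deciles of mean fold the median log2 ratio was 0.11 in the first 1 Mb and 0.13 between 10 and 20 Mb, so at like fold the difference was small at this end.

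On a scale of 1 Mb, the shares of both classes varied between windows. The spread expected from counting error in windows of this size was not computed. Among 1834 windows of 1 Mb with at least 50 regions, the share of liver only regions had a 5th percentile of 12.4%, a median of 24.5% and a 95th percentile of 34.7%. The highest share, 56.9%, was seen on chromosome 13 between 19 and 20 Mb, where 29 of 51 regions were liver only. The same chromosome held the highest share of pancreas only regions between 17 and 18 Mb, 20 of 61 or 32.8%, where the median over windows was 7.69%. Among 1383 windows with at least 50 shared regions, the median log2 ratio was highest on chromosome 16 between 20 and 21 Mb, at 0.48 over 347 regions. That window also holds the strongest pancreas only region, and 10 of its 458 regions were pancreas only. Adjacent windows of chromosome 9 between 48 and 50 Mb had medians of 0.45 and 0.43. The lowest medians were −0.33 on chromosome 36 between 2 and 3 Mb, which contains the region at chr36:2549330-2550438, and −0.32 on chromosome 25 between 50 and 51 Mb.

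Runs of neighbouring regions of the same single-tissue class were counted along each chromosome. Of liver only regions 53.3% and of pancreas only regions 77.3% had no neighbour of the same class next to them. The classes held 22.7% and 7.17% of all regions, so the smaller class meets its own kind less often in any order. A comparison with a random order was not made. The longest run of consecutive liver only regions held 13 of them over 78.1 kb, at chr9:45298274-45376387. Runs of pancreas only regions reached 6 regions, in 7 places. The longest runs of shared regions held 71, in 2 places. The distance from a liver only region to the nearest shared region had a median of 1918 bases, and 36.1% lay within 1000 bases. For pancreas only regions the median was 3052 bases and the share 28.2%.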

How the data were processed

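The MBD-seq peak lists were deposited by the authors without headers, 1 list per tissue, and each is labelled for 2 captured libraries. Per the labels' protocols, 500 ng of DNA sheared to about 300 bases was captured per reaction, and the fractions eluted at 600 and 800 mM were sequenced. The genome build was CanFam3.1, per the submitters' processing notes. The peak caller, its control and the way libraries were combined are not given in the sources used here. What each column holds was taken from the standard narrow-peak column order, checked against the ranges found. The deposited score was the whole part of 10 times the −log10 p, except in 1 peak, and was not used further. The fold is the deposited ratio of enrichment, and the −log10 p and −log10 q are as deposited by the authors.

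Autosomal peaks were merged where they shared at least 1 base. A region took the highest fold of each list, divided by the list median. Presence in the other 9 tissues required 1 shared base. No test of liver against pancreas was made, because each tissue has 1 list. An outlier rule was applied only to sets of values of the other 9 tissues. Named regions are the 5 with the highest normalised fold in each single-tissue class, the 5 highest and 5 lowest ratios at a mean normalised fold of at least 1, the widest region of each class and the longest runs. Windows were named after their values were seen. The comparison and its measures were chosen with earlier results of these data known. Gene lists and base composition, which had been planned, were not analysed here. Alternatives were other overlaps, thresholds and scalings. On simulated data, 6000 of 6000 regions were classed correctly and 200 of 200 planted ratios were recovered. The simulated regions were well separated, had at most 1 peak in each list and carried folds without noise. That run therefore checked the code only and says nothing about the classes or ratios of the real lists. Python 3.11.15, numpy 2.4.6, pandas 2.3.3 and matplotlib 3.10.9 were used.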

Additional observations from a re-analysis of the deposited data

Results flagged for a closer look

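In 6 sets of 9 values, 1 per other tissue, the gap of the most distant value was divided by the range. The result passed the critical value of 0.493 in 1 set, at 0.568. Chance alone gives about 1 in 20 for a single set, so 1 among 6 sets is not rare. The tissues also share animals and are not independent. Cerebellum had a peak in 83.7% of the regions shared by liver and pancreas, while the other 8 tissues had one in 89.1% (colon) to 93.2% (kidney), although the cerebellum list is the second longest of the 9 with 340948 autosomal peaks.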

How the results depend on the processing

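The lists give no reads and 1 value per tissue, so depth and input animal cannot be separated from tissue, and weak peaks limit what the single-tissue classes show. A wider promoter window was not tried, since genes were not analysed here. No paired analysis was possible because both libraries of a tissue share 1 list. Values are given in the order liver only, pancreas only and shared. With a required overlap of 50% of the shorter peak, the 3 class shares, the median ratio and both shares of calls stayed within their intervals, and other values were not computed. Merging peaks up to 200 bases apart gave 22.5%, 7.27% and 70.2% of regions and median widths of 235, 214 and 401 bases. Keeping the stronger 50% of both lists gave 27.1%, 12.8% and 60.2%, and widths of 334, 275 and 707 bases. For presence, the lists of the other tissues were also cut to their stronger 50%. The median presence over the other tissues was then 43.4%, 53.7% and 86.8%. These values cannot be compared with presence in the full lists, since fewer peaks were left to be found. Equal list lengths gave 16.7%, 12.3% and 71.0%, widths of 245, 221 and 410 bases, normalised folds of 0.763, 0.654 and 1.38, and a median presence of 54.4%, 64.8% and 91.6%, the last chosen after seeing the data. As another such choice, it gave 47.9% of liver and 65.1% of pancreas peaks shared in the weakest decile, and more liver only than pancreas only regions on 37 chromosomes. A fold of at least 5 gave 21.2%, 11.9% and 66.9%, and a −log10 q of at least 10 gave 19.3%, 10.3% and 70.4%. Over all autosomes, liver only regions outnumbered pancreas only regions under each of these. At equal list lengths that excess is the surplus of pancreas over liver peaks inside shared regions. The width of the widest single peak was 386 bases in shared regions. The fold as deposited had medians of 4.85, 5.15 and 9.99. Coverage of 50% of a region gave a presence of 50.95%, 60.3% and 89.3%.

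On chromosomes 9 and 31 the liver only share was 32.7% and 20.5% in the stricter lists and 18.9% and 13.3% at equal lengths. On chromosomes 32 and 20 the pancreas only share was 26.3% and 9.23%, then 17.3% and 10.04%.

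The median log2 ratio changed sign with the scaling. It was −0.053 with the fold as deposited (4.66% liver higher, 4.89% pancreas higher) and −0.046 with the medians over shared regions (4.74% and 4.78%). Both follow from the shift that the divisor adds. The mean fold of a region gave 0.12 and 7.97% liver higher, regions with 1 peak in each list 0.11, and a mean normalised fold of at least 1 gave 0.062 and 3.44% pancreas higher. At a log2 ratio of 0.58, slightly under 1.5 times, 20.9% were liver higher and 11.3% pancreas higher. The 10 named shared regions stayed past 2 times in the same direction under the 3 other scalings and summaries tried. This outcome was fixed in advance and is no support. Each of these regions had 1 peak in each list, so its mean and highest fold are the same. The other divisors shift all ratios together by far less than the size of these ratios. As alternatives chosen after seeing the data, pancreas was the lowest of 11 tissues in 41.0% of liver higher regions, and liver in 50.95% of pancreas higher regions, with medians over shared regions as divisors, and in 59.7% and 60.2% with calls on the fold as deposited.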
